A study of Homo sapiens with 4 samples.

Results

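Endothelial junction and surface genes are described here across 4 populations of the human embryonic stem cell line H1 on its way to blood. The members are the rows of the expression tables with the gene symbols CDH5, ESAM, CLDN5, ICAM2, PLVAP, TIE1, ROBO4, MMRN1, MMRN2 and EGFL7. All 10 were found, once each, among 17630 genes. RNA was sequenced from 4 libraries, 1 per population. Undifferentiated H1 cells are called hESC. APLNR+ cells collected on day 2, after 2 days of activin A at 40 ng/ml and BMP4 at 50 ng/ml, are called MES. CD31+CD34+ cells collected on day 4, after 2 more days in VEGF at 40 ng/ml and bFGF at 50 ng/ml, are called HEP. CD31+CD43+ cells collected on day 7, after a last 3 days in the same VEGF and bFGF with SB-431542, a blocker of activin and NODAL receptors, are called HPC. A cell sorter collected the 3 differentiated populations, all 4 libraries come from 1 cell line, and nothing in the labels says how many cultures stand behind each library. With 1 library per population there is no replicate error and no test between populations, and every difference below is a difference between 2 libraries. Day, medium and sorted antigens change together between populations, so their parts in a difference cannot be told apart. Wording by day, such as a gain at day 4, names the library and not an effect of time.

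Endothelial cells form the inner wall of vessels and hold to each other through adherens junctions, built on VE-cadherin, and tight junctions, built on claudins and on adhesion molecules of the immunoglobulin family. These cells also carry surface proteins that meet blood cells or form the diaphragms of fenestrae and caveolae, tyrosine kinase and guidance receptors, and secreted proteins laid down around the vessel. During development some endothelial cells, called haemogenic, loosen these junctions and round up into blood progenitors, so such genes are commonly read as a measure of how endothelial a population still is. Several of the 10 are also known in blood: ICAM2 in leukocytes and platelets, ESAM in platelets and blood stem cells, MMRN1 in platelet granules, and TIE1 and EGFL7 in early haematopoietic cells.

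Promoter sequences are shown for 4 members that followed different courses: PLVAP, high on day 4 and lower on day 7, TIE1, at like values on both days, EGFL7, present before differentiation, and MMRN1, high on day 7 alone. They come from RefSeq on GRCh38.p14, a later build than the hg19 named for the expression tables, and run from 250 bases before to 50 bases after the start of the gene. RefSeq entries were matched by symbol for 6 of the 10 members, with 8 sequences in all; PLVAP, TIE1, ROBO4 and MMRN2 have 1 each, and EGFL7 and MMRN1 have 2, for 2 transcription starts. The members without a match were CDH5, ESAM, CLDN5 and ICAM2. Capitals mark the letters CAGGAAG or GAGGAAG or CCGGAAG or ACGGAAG on either strand, 4 extended forms of the GGAA core that ETS transcription factors bind.
PLVAP (chr19:17377293-17377592, minus strand): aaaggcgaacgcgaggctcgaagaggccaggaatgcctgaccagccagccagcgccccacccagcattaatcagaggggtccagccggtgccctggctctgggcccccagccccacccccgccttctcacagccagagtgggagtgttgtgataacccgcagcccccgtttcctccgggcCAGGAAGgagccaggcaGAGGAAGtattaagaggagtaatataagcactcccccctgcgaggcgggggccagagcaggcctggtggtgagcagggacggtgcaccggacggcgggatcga
TIE1 (chr1:43300732-43301031, plus strand): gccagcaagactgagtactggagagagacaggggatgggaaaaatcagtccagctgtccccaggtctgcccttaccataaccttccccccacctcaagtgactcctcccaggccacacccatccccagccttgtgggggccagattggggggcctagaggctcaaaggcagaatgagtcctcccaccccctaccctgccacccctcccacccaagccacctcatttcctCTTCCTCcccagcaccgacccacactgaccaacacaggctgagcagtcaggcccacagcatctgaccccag
EGFL7, first start (chr9:136658606-136658905, plus strand): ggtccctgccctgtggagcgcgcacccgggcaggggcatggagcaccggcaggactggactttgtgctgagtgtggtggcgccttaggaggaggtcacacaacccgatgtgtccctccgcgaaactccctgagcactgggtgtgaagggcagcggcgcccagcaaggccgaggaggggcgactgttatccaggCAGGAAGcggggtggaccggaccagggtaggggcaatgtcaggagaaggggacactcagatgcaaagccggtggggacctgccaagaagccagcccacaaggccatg
EGFL7, second start (chr9:136662666-136662965, plus strand): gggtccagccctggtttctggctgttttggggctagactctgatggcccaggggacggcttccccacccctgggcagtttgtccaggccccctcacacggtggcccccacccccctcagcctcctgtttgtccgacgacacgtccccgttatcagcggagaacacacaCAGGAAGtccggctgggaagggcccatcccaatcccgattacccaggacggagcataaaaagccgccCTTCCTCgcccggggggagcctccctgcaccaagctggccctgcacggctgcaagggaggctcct
MMRN1, first start (chr4:89879261-89879560, plus strand): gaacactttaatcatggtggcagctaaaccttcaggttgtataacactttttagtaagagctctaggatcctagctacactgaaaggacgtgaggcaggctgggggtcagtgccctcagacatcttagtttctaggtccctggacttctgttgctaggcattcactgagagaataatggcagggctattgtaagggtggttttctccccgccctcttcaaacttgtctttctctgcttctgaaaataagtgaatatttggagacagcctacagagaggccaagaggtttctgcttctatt
MMRN1, second start (chr4:89894604-89894903, plus strand): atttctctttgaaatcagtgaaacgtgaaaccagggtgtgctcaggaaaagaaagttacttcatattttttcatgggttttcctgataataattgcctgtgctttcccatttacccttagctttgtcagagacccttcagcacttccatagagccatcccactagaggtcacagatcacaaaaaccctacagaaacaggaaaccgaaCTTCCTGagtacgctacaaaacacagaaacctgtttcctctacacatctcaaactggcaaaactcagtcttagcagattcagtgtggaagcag

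The marked letters occurred in 7 of the 8 member sequences and in 34.0% of 35116 RefSeq promoter sequences of the same length. They stood 2 times in PLVAP, beginning at -70 and -53 (the first transcribed base is 0), once in TIE1 (-21), 1 and 2 times at the starts of EGFL7 (-57, and -82 with -15), once in MMRN2 (-52) and once in ROBO4 (-90). The first MMRN1 start had none, and not even the bare GGAA core, which 95.5% of all promoter sequences hold; the second MMRN1 start had 1 (-43) and 8 GGAA cores. GATA letters (AGATAA or TGATAA) occurred in 4 of the 8 sequences and in 16.3% of all, and RUNX letters (TGTGGT or TGCGGT) in 2 of the 8 and 19.6% of all. The motif letters were chosen after the sequences had been seen. The expression tables hold 1 value per gene, so which start was used is not known, and a match is a description of letters and not a binding site.

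The members were nearly silent at the first 2 stages. In hESC 9 of the 10 stood below 1, on the scale of the deposited expression values, and in MES again 9; ESAM and ROBO4 were listed at 0 in hESC. EGFL7 was the exception, at 32.9 in hESC and 21.4 in MES. In HEP 7 of the 10 stood at 5 or more, and in HPC 9. The highest value lay in HEP for 7 members and in HPC for 3, ICAM2, CLDN5 and MMRN1. Values for each member in the 4 libraries are plotted on separate scales.

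**Figure D1:**
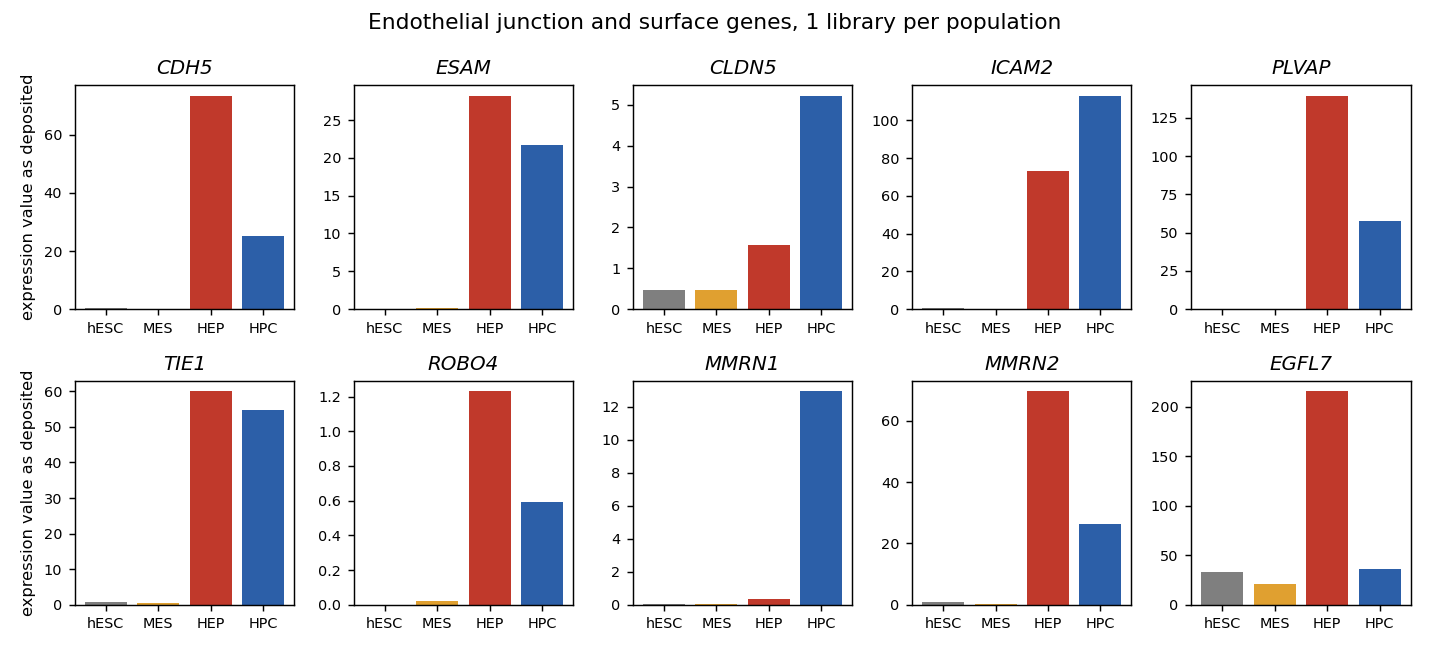
Deposited expression value (vertical axis, linear from 0, a separate scale for each gene) of the 10 genes in the hESC, MES, HEP and HPC libraries; each bar is 1 library and there are no error bars. CDH5, ESAM, PLVAP, TIE1, ROBO4, MMRN2 and EGFL7 are highest in HEP, and CLDN5, ICAM2 and MMRN1 in HPC.

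Each difference between libraries was taken on the scale of log2(value + 1), which understates the change of low genes. A gene was called higher or lower where this difference reached 1 or -1 and the larger of both values reached 5. From hESC to MES no member was called higher (0 of 10) or lower. Of all genes 3.79% were called higher, or 8.97% of those at 5 or more in the higher library, and 3.70% were called lower. Only 1 member, EGFL7, reached 5 in either library at this step, so the others could not be called in either direction. From MES to HEP 7 of 10 members were called higher and 0 lower, where 3.31% of all genes were called higher, or 8.08% of the 7225 at 5 or more in the higher library, and 13.9% of all genes were called lower. That background depended on scaling: with median-of-ratios scaling 8.30% of all genes were called higher and 8.25% lower, and with upper quartile scaling 7.75% and 8.54%, while the same 7 members were called. The median difference of the 10 members was 4.93, and that of all genes -0.11. From HEP to HPC 4 of 10 were called lower and 2 higher, where 3.57% of all genes were called lower and 3.01% higher (10.7% and 8.99% of those at 5 or more). The median difference at this step was -0.43, and that of all genes 0.00. This step shares the HEP library with the one before, so a HEP value that is high by error would raise the first difference and lower the second. From hESC to HPC, a comparison that shares no library with MES to HEP, 8 of 10 were called higher and 0 lower, where 4.66% of all genes were called higher (11.1% of those at 5 or more) and 15.8% lower. With median-of-ratios scaling 9.07% of all genes were called higher in this comparison, with the same 8 members called. The members are bulk values, in which fewer cells of a type and less RNA per cell cannot be told apart.

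**Figure D2:**
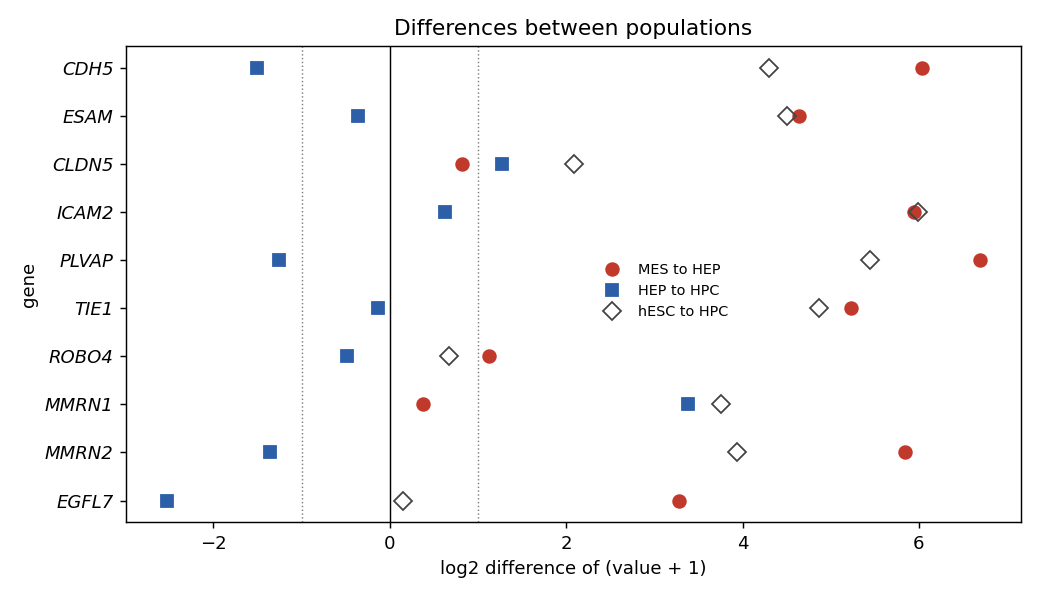
Log2 difference of (value + 1) (horizontal axis) for each gene (vertical axis) from MES to HEP (circles), HEP to HPC (squares) and hESC to HPC (open diamonds); each mark compares 2 single libraries, and dotted lines stand at -1 and 1. Circles of 7 genes lie above 3, while squares spread from -2.53 for EGFL7 to 3.38 for MMRN1.

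The junction genes proper were CDH5, ESAM and CLDN5, and they took 3 courses. CDH5, VE-cadherin, the transmembrane protein of endothelial adherens junctions, stood at 0.33 for hESC, 0.14 for MES, 73.5 for HEP and 25.1 for HPC. Its difference was 6.03 from MES to HEP and -1.51 from HEP to HPC, and its HPC value was 34.2% of its HEP value. CDH5 was thus called higher at the first of these steps and lower at the second, while its HPC value still stood 4.30 above hESC on the log2 scale.

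ESAM, an immunoglobulin-family adhesion molecule of endothelial tight junctions, was listed at 0 for hESC and stood at 0.17 for MES, 28.2 for HEP and 21.7 for HPC. The gain at day 4 was 4.64, and the difference from HEP to HPC was -0.36, with 77.0% of the HEP value in HPC, so it was not called at the second step. CLDN5, the main claudin of endothelial tight junctions, stood at 0.47, 0.46, 1.57 and 5.23 in the same order. It was not called from MES to HEP (0.82) and was called higher from HEP to HPC (1.28), where it stood just above the minimum of 5; with a pseudocount of 5 that difference was 0.64 and not called, and the call was also lost at a minimum of 20 and at a fold of 4.

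The surface proteins ICAM2 and PLVAP were both called higher from MES to HEP and parted from HEP to HPC. ICAM2, an adhesion molecule that binds leukocyte integrins, stood at 0.80 for hESC, 0.20 for MES, 73.2 for HEP and 113 for HPC. Its difference was 5.95 from MES to HEP and 0.62 from HEP to HPC, the latter not called, and its HPC value was 155% of its HEP value. PLVAP, which builds the diaphragms of fenestrae and caveolae, stood at 0.35, 0.36, 139.5 and 57.8 in the same order. Its difference was 6.69 from MES to HEP, and from HEP to HPC it was called lower at -1.26, with 41.4% of the HEP value in HPC. After removal of the GC trend described below the PLVAP difference was -1.05, near the limit for a call.

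The receptors were TIE1 and ROBO4. TIE1, the partner kinase of the angiopoietin receptor TIE2, stood at 0.91 for hESC, 0.63 for MES, 60.0 for HEP and 54.7 for HPC. It was called higher from MES to HEP (5.23) and was not called from HEP to HPC (-0.13, or 0.13 with the GC trend removed), and its HPC value was 91.1% of its HEP value. ROBO4, an endothelial relative of the axon guidance receptors, was listed at 0 for hESC and stood at 0.02 for MES, 1.23 for HEP and 0.59 for HPC. ROBO4 thus stayed below 5 in every library and could not be called in any comparison, although its log2 difference from MES to HEP was 1.13.

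The secreted proteins split most widely. MMRN2, a multimerin of the endothelial matrix, stood at 0.80 for hESC, 0.23 for MES, 69.6 for HEP and 26.5 for HPC. It was called higher from MES to HEP (5.84) and lower from HEP to HPC (-1.36, 38.1% of the HEP value). Its relative MMRN1, a multimerin that platelets store in granules and that endothelium also makes, had a value of 0.03 before and on day 2, 0.34 on day 4 and 12.9 on day 7. MMRN1 was not called from MES to HEP (0.38) and was called higher from HEP to HPC (3.38), a call that a minimum of 20 removed, so the multimerins had their highest values in different libraries.

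EGFL7, a secreted EGF-domain protein of the endothelial matrix, was the member with a level before differentiation. It stood at 32.9 for hESC, 21.4 for MES, 216 for HEP and 36.6 for HPC. The gain at day 4 was 3.28 and the difference from HEP to HPC was -2.53, with 17.0% of the HEP value in HPC. From hESC to HPC the difference was 0.15 as deposited, -0.02 with the GC trend removed, 0.41 at a common total, 0.70 with upper quartile scaling and 0.74 with median-of-ratios scaling. EGFL7 was not called in that comparison under any of these, so how near its day 7 value lay to that of the undifferentiated cells depended on scaling.

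The gains at day 4 covered a wide span of ranks. Among all 17630 genes, PLVAP was number 1, CDH5 3, ICAM2 4, MMRN2 5, TIE1 12, ESAM 18 and EGFL7 70 from the highest. The other 3 members stood lower, ROBO4 at number 657, CLDN5 at 1110 and MMRN1 at 2487. Exact ranks depend on the pseudocount, which was 1 here. At a pseudocount of 0.1 the difference was 8.26 for CDH5 and 8.25 for PLVAP, so their order was reversed. The differences from HEP to HPC ran from near the lowest to near the highest of all genes. EGFL7 lay at percentile 0.37, CDH5 at 2.25, MMRN2 at 2.93, PLVAP at 3.43, ROBO4 at 13.2, ESAM at 17.1, TIE1 at 28.1, ICAM2 at 88.6, CLDN5 at 97.5 and MMRN1 at 99.8. Many of the genes in these ranks are at or near 0 in both libraries and cannot move far.

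**Figure D3:**
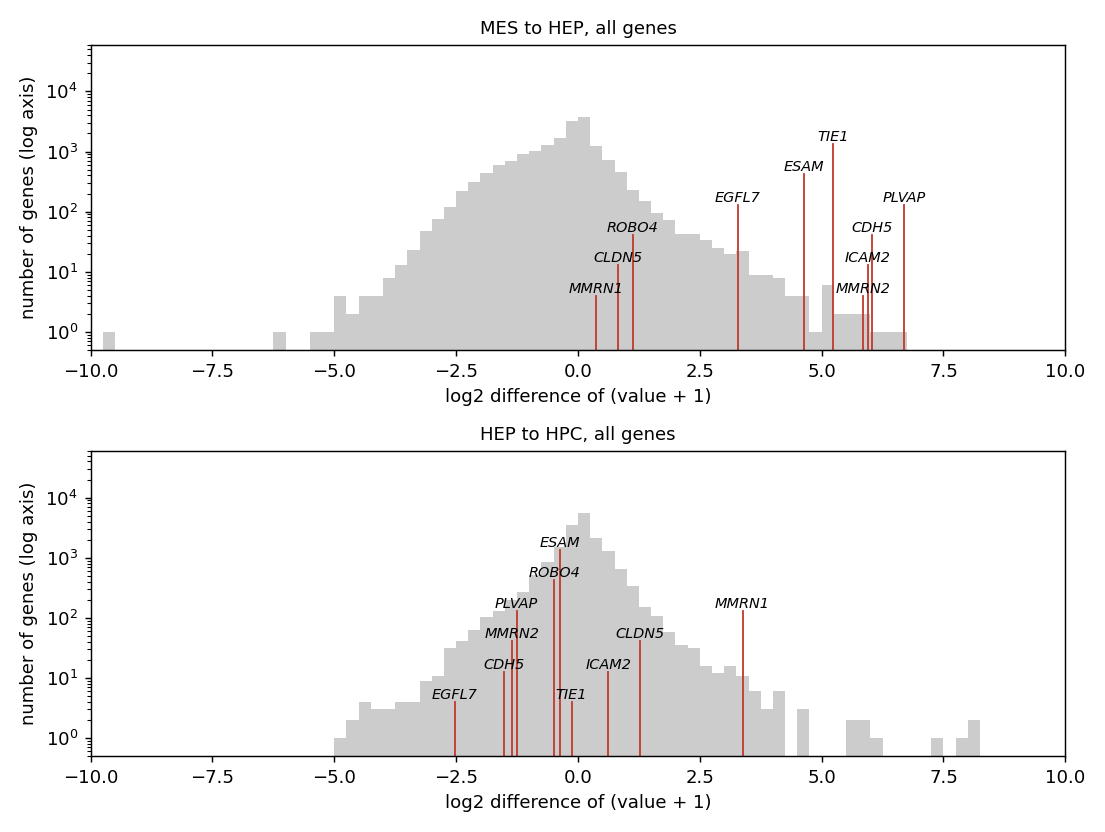
Number of genes (vertical log axis) by log2 difference of (value + 1) (horizontal axis) from MES to HEP (upper panel) and from HEP to HPC (lower panel), over all 17630 genes; red lines mark the 10 members, and their heights only separate the labels. In the upper panel 7 members lie above 3, while ROBO4, CLDN5 and MMRN1 lie between 0.38 and 1.13, and in the lower panel the members run from -2.53 to 3.38.

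The HPC values as a share of HEP values moved with how libraries were scaled. Members are GC-rich in the transcripts of GENCODE 29, with a median GC content of 59.9% against 51.6% over genes with a mean of 5 or more, and MMRN1 is the lowest at 37.6%. Differences between libraries followed GC content, with Spearman's rho over 6366 genes (genes do not count as replicates) at 0.71 from MES to HEP and -0.43 from HEP to HPC. Removal of this trend left rho at 0.13 and -0.10 in the same order. From MES to HEP the difference then fell from 3.28 to 2.75 for EGFL7 and rose from 0.38 to 0.80 for MMRN1. The same 7 members were called higher there. With the trend removed in this way, EGFL7 in HPC stood at 21.5% of its HEP value, CDH5 at 36.2%, MMRN2 at 42.5%, PLVAP at 48.0%, ESAM at 92.2%, TIE1 at 110% and ICAM2 at 172%. When all libraries were brought to 1 total the shares were lower, from 14.8% for EGFL7 to 79.3% for TIE1 and 134% for ICAM2. TIE1 thus lay on either side of 100% depending on scaling. Median-of-ratios, upper quartile and common total scaling each divide a library by 1 factor, so they cannot change the order of the shares. Only removal of the GC trend could, and with it the order of these 7 genes was the same as in the deposited values. From common total to GC trend removed, ROBO4 went from 41.7% to 56.1%, CLDN5 from 290% to 422% and MMRN1 from 3308% to 2818%.

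**Figure D4:**
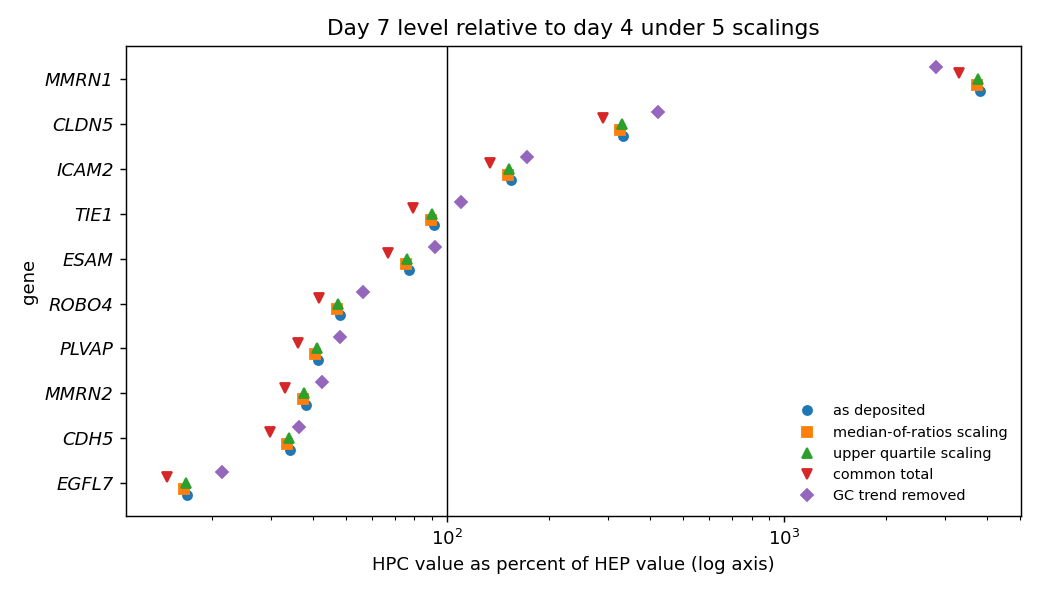
HPC value as percent of HEP value (horizontal log axis) for each gene (vertical axis, sorted by the values as deposited); the 5 marks of a gene are 5 scalings of the same 2 libraries, and the vertical line is 100%. EGFL7, CDH5, MMRN2 and PLVAP lie below 50% under each scaling, and ICAM2, CLDN5 and MMRN1 above 100%.

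Other endothelial genes, from a list that holds none of the members, were also mostly higher on day 4 and differed in how much was left on day 7. Of 28 detected at 1 or more in any library, out of 35, 19 were called higher from MES to HEP and 0 lower, and from HEP to HPC 13 were called lower and 4 higher. KDR, the main VEGF receptor, stood at 24.5, 62.4, 210.4 and 88.3 in hESC, MES, HEP and HPC, the endothelin-converting enzyme ECE1 at 7.88, 19.3, 74.7 and 31.1, the adhesion molecule MCAM at 5.09, 20.4, 72.5 and 12.9, and RASIP1, a regulator of vessel lumen formation, at 1.90, 0.57, 53.3 and 13.9. These genes, named for their high values, were all among those called lower from HEP to HPC. The 4 called higher there were STAB1 (24.7 to 51.2), FLI1 (10.3 to 22.0), MYCT1 (1.76 to 6.07) and PECAM1. The HPC value as a share of the HEP value ran from 17.0% to 3803% over all 10 members, with 3 above 100% (ICAM2, CLDN5 and MMRN1) and a median of 62.5%. Over the 28 other endothelial genes it ran from 5.38% to 705%, with 7 above 100% and a median of 43.9%. Over 11940 genes at 1 or more in any library and above 0 in HEP the median was 107%, with 54.5% of them above 100%. The highest shares belong to genes that were low in HEP. PECAM1, which encodes CD31, the antigen shared by both sorts, stood at 1.83 in HEP and 7.49 in HPC.

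Blood markers were mostly higher in HPC, and a few already in HEP. Of 12 blood cell markers 10 were detected; 2 were called higher and 1 lower from MES to HEP, and 8 higher and 0 lower from HEP to HPC; their summed value was 1.39 for hESC, 8.32 for MES, 32.0 for HEP and 1291 for HPC, led by the globins HBG1, which went from 1.24 in HEP to 655 in HPC, and HBE1, from 0.77 to 442. LAPTM5, a lysosomal membrane protein of blood cells, went from 0.06 at the MES stage to 14.45 in HEP and 51.1 in HPC. The erythroid transcription factor KLF1 took values of 1.25, 9.54 and 33.0 over these stages. GATA1, the transcription factor of red cells and megakaryocytes, went from 0.61 in HEP to 41.5 in HPC. PTPRC, the pan-leukocyte antigen CD45, was below 1 in every library. Of 12 megakaryocyte and platelet markers 10 were detected, and 6 were called higher from HEP to HPC and 0 lower, with summed values of 2.93, 1.71, 8.42 and 425 in the 4 libraries; 9 were listed at 0 in MES, 2 in HEP and 0 in HPC. ITGA2B, the platelet integrin CD41, went from 3.90 in HEP to 283 in HPC, its partner ITGB3 from 0.56 to 74.0, the platelet chemokine PF4 from 0.87 to 30.3 and the receptor subunit GP1BB from 0.53 to 9.33. All 10 members were measured in the same HPC library as these markers, the 4 called lower and the 2 called higher there alike, and the part of such cells in their day 7 values was not tested.

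Smooth muscle and mesenchyme markers were also present. Of 10 such markers 8 were detected, with summed values of 139 for hESC, 730 for MES, 568 for HEP and 150 for HPC, a sum carried by TAGLN, a smooth muscle actin-binding protein, at 94.8, 561, 233 and 12.4, and by the collagen COL1A2, at 27.2, 119.5, 235 and 53.4. From MES to HEP, where 7 members were called higher, 3 of the 8 were called higher and 1, TAGLN, lower. Those called higher were the fibrillar collagens COL3A1 (1.05 to 23.1) and COL1A1 (12.1 to 51.3) and the smooth muscle actin ACTA2 (1.68 to 6.81). From HEP to HPC 4 were called lower and 1 higher. Pluripotent markers summed to 2367, 810 and 295 in hESC, MES and HEP and to 127 in HPC, and mesoderm markers to 1.06, 248, 25.4 and 3.11 in the same order. Their part in the members' values was not tested.

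Partners and relatives of CDH5 were read next. Of 9 proteins that work with VE-cadherin at adherens junctions, 1 was called higher and 1 lower from MES to HEP, and 0 higher and 2 lower from HEP to HPC. Beta-catenin, CTNNB1, stood at 217, 189, 159 and 115 across hESC, MES, HEP and HPC, alpha-catenin, CTNNA1, at 127, 94.7, 91.3 and 53.4, and vinculin, VCL, at 98.2, 57.8, 40.1 and 44.4. The nectin PVRL2 stood at 39.7, 63.8, 147 and 57.1. The intracellular catenins were therefore present from the start, and only PVRL2 among the 9 was called higher at day 4. PTPRB, another of the 9, went from 0.05 in MES to 3.98 in HEP, a difference of 2.25. It stayed below 5 and so could not be called.

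Of 17 other cadherins 9 were detected, and their summed value was 104 for hESC, 115 for MES, 68.5 for HEP and 20.5 for HPC. CDH1, the epithelial E-cadherin, stood at 31.5, 12.5, 2.76 and 1.13, and CDH3, P-cadherin, at 60.2, 22.0, 12.3 and 2.74. CDH2, N-cadherin, was highest in MES (7.88, 47.8, 12.0 and 3.69), and CDH11, a mesenchymal cadherin, in HEP (1.07, 20.4, 31.3 and 8.93). From HEP to HPC 4 of the 9 were called lower and 0 higher, as CDH5 was called lower.

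The summed level of the other claudins declined stage by stage while CLDN5 appeared late. Of 20 other claudins 15 were in the tables and 10 were detected, and their summed value was 209.9 for hESC, 90.6 for MES, 48.7 for HEP and 20.5 for HPC. From hESC to HPC 5 of the 10 were called lower and 0 higher, while CLDN5 was called higher (2.08). CLDN6, a claudin of embryonic epithelia, stood at 127, 43.5, 22.8 and 4.23, CLDN7 at 44.6, 10.7, 12.9 and 7.78, CLDN4 at 12.2, 9.70, 4.98 and 1.5 and CLDN12 at 10.7, 6.96, 1.89 and 2.51.

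Few of the tight junction scaffolds and JAM proteins were called higher on day 4. Of 13, 12 were detected, with 1 called higher and 3 lower from MES to HEP and 0 higher and 1 lower from HEP to HPC. The gene called higher at day 4 and lower at day 7 was the same, JAM3, a junctional adhesion molecule related to ESAM, at 13.1, 14.2, 58.3 and 22.7. F11R, another of this family, stood at 63.3, 56.0, 50.6 and 60.5, the scaffold CGNL1 at 7.12, 17.6, 10.03 and 5.87 and the polarity protein PARD3 at 15.0, 15.2, 5.83 and 3.37.

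Relatives of ICAM2 and its integrin ligands were low on day 4. Of 8 ICAM relatives and integrin ligands 5 were detected, and 0 were called in either direction from MES to HEP. ICAM4, a red cell adhesion molecule, was called higher from HEP to HPC (0.44, 1.55, 3.07 and 40.9 in order of stage). ICAM3 (4.79, 0.35, 1.61 and 3.86), ICAM1 (0.67, 0.87, 1.31 and 1.67) and the leukocyte integrin chain ITGB2 (0.13, 0.35, 2.09 and 3.68) were below 5 in every library.

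TIE2, encoded by TEK, was called higher from MES to HEP like TIE1 and lower from HEP to HPC unlike it, at 6.58, 2.09, 42.6 and 18.4. The HPC value of TEK was 43.2% of its HEP value, against 91.1% for TIE1, a difference between genes in the same 2 libraries with no replicate check. The TIE2 ligands ANGPT1 (0.84, 0.63, 0.09 and 3.79) and ANGPT2 (0.02, 2.87, 0.51 and 0.43) were below 5 throughout. ROBO4's family was low too: of 7 ROBO, SLIT and UNC5B genes 4 were detected, 0 were called from MES to HEP, and UNC5B, a binding partner of ROBO4, was called lower from HEP to HPC (5.77, 7.84, 13.9 and 3.03). ROBO1 stood at 6.24, 9.90, 5.97 and 3.14, SLIT2 at 0.92, 4.18, 2.54 and 1.52 and ROBO2 at 0.40, 0.77, 1.39 and 1.24.

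Among relatives of the multimerins and receptors that bind MMRN2, 6 of 6 were detected, with 2 called higher from MES to HEP and 1 lower from HEP to HPC. EMILIN1, an elastic fibre protein, stood at 2.02, 3.09, 23.9 and 35.2, and EMILIN2 at 0.83, 7.38, 8.34 and 3.53. The endothelial lectins CD93 (0.06, 0.03, 5.10 and 8.94) and CLEC14A (0.07, 0.25, 4.39 and 5.93), both of which bind MMRN2, had their highest value in HPC, but their differences from HEP to HPC (0.70 and 0.36) were not called, while MMRN2 was called lower there. CD248, another lectin of this family, stood at 2.83 in HEP and 0.89 in HPC, below 5 and so not called.

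**Figure D5:**
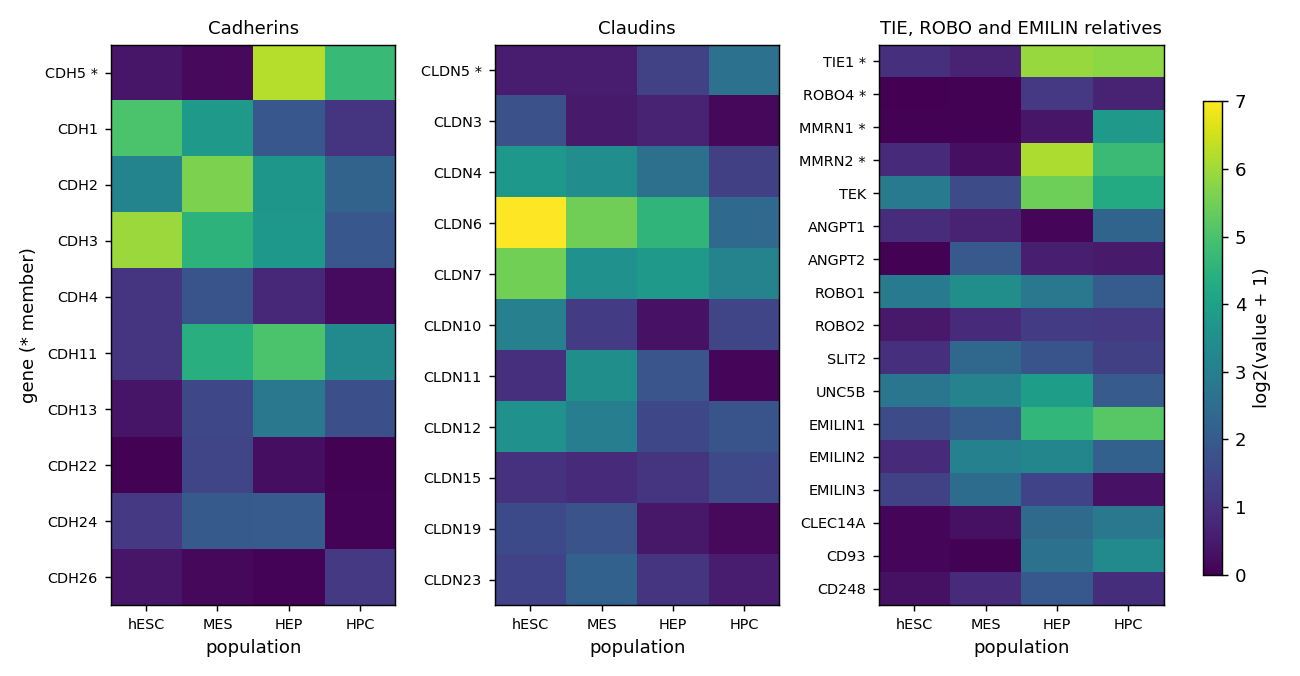
Colour shows log2(value + 1) in each of the 4 libraries (columns) for members, marked with an asterisk, and the detected relatives and partners (rows) of the cadherins, the claudins and the TIE, ROBO and EMILIN groups, with 1 library per column. CDH1 and CDH3 are brightest in hESC and CDH5 in HEP, and CLDN6 fades from hESC to HPC while CLDN5 brightens.

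The caveolar coat was read beside PLVAP, whose diaphragms close caveolae. Of 6 genes found of 8 listed, all detected, 3 were called higher from MES to HEP and 0 lower, and from HEP to HPC 2 were called lower and 1 higher. PTRF, which encodes cavin-1, stood at 10.4, 9.53, 109.5 and 75.3, PRKCDBP, cavin-3, at 8.75, 12.1, 29.96 and 6.71 and the caveolar neck ATPase EHD2 at 0.63, 2.53, 16.0 and 3.63. SDPR, cavin-2, was called higher from HEP to HPC instead (0.08, 0.05, 1.04 and 17.2). CAV1, the main coat protein and named here although the naming rule did not pick it, stood at 2.02, 1.80, 0.14 and 0.58. CAV1 was thus below 5 in every library and could not be called. Its lowest value lay in HEP, where PLVAP was high, but values this low are given only as a description.

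The non-member genes nearest to a member were in part shared between members. Distance was Euclidean, of log2(value + 1) over the 4 libraries, among genes at 5 or more in any. Members were left out of this search, so another member may lie nearer than the genes named. Nearest to CDH5 were TAL1 (distance 0.99), a transcription factor of blood and endothelium, FCN3 (1.04) and SCARF1 (1.20), and the same 3 genes were nearest to MMRN2, SCARF1 (1.03), TAL1 (1.15) and FCN3 (1.22). LMO2, a partner of TAL1, was nearest to ICAM2 (0.63), TIE1 (0.64) and PLVAP (1.46), which also shared FAM212A among their 3 nearest, and HOPX was nearest to ESAM (0.56). Nearest to MMRN1 were TNFAIP8L2 (0.21), SPI1 (0.21), the myeloid transcription factor PU.1, and TYROBP (0.41), a signalling adaptor of myeloid cells, all below 1 in HEP and above 10 in HPC. EGFL7 had SLC20A1, a phosphate transporter, as its nearest gene (1.07), followed by COL4A1 (1.17), a basement membrane collagen that stood at 23.9, 43.0, 158 and 38.3. CLDN5 was nearest to DOK3 (0.24). No gene is given for ROBO4, which lies below the minimum that these genes had to reach. These distances rest on 4 values each and are descriptions, and a near gene need not share the step from HEP to HPC. LMO2 went from 56.0 in HEP to 81.5 in HPC, where PLVAP was called lower. TAL1 went from 50.4 to 43.2 and SCARF1 from 35.0 to 33.2, where CDH5 and MMRN2 were called lower. FCN3 went from 51.0 to 13.2 at that step.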

How the data were processed

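RNA was measured in 4 libraries of H1 cells, 1 per population; per the labels' protocols Trizol was used for extraction and a TruSeq kit for library construction from 2 ug of RNA. The tables deposited by the authors give a normalised expression signal per gene, to 2 decimals. The submitters' processing notes name BWA, Bowtie, RSEM and build hg19; tool roles, annotation, strand and whether the signal is FPKM or TPM are not stated there. Library sums ran from 306724 to 426980 and low values filled every step of 0.01 rather than multiples of a read, so depth is unknown and no interval or floor is given. Each table had 17634 rows; 4 that shared a name were left out.

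Values were used as deposited. List genes were ordered by value, and distances between genes were taken on these values, whose scaling by transcript length is not stated. The members and the 15 gene lists were chosen with earlier results of these data known. List genes counted as detected at 1 or more in any library. All members are named, with up to 4 genes of a list, taken by highest value, and genes nearest to a member. CAV1, CD248, PECAM1, STAB1, FLI1, MYCT1, PTPRB, PTPRC, KLF1, ACTA2 and chromosomal neighbours were added after their values were seen. Transcript GC content (GENCODE 29) was found for 17428 genes (98.9%). Its trend, the median log2 deviation of a library in each of 50 bins (mean value at least 5, smoothed over 5 neighbouring bins), was divided out. Alternatives tried were a pseudocount of 0.1 or 5, a minimum of 0 or 20, 4-fold as the limit, and 4 scalings: median of ratios, upper quartile, common total and GC trend removed. Python 3.11.15 and pandas 2.3.3 were used.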

Additional observations from a re-analysis of the deposited data

How the results depend on the processing

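Each comparison was repeated with 9 alternatives. The count of members called higher from MES to HEP was 7 in 8 of them and 8 with no minimum, which added ROBO4. The 4 members called lower from HEP to HPC were CDH5, PLVAP, MMRN2 and EGFL7 in 8 alternatives, and 1, EGFL7, at a fold of 4, a stricter limit by construction. The 2 called higher at that step, CLDN5 and MMRN1, fell to 1, MMRN1, at a pseudocount of 5 and at a fold of 4, and to 0 at a minimum of 20. Over the 5 scalings the share of all genes called higher from MES to HEP ran from 3.31% as deposited to 8.30% with median-of-ratios scaling, which moved the median difference of all genes from -0.11 to 0.00. From hESC to MES the count called higher was 0 throughout, although as deposited only EGFL7 reached the minimum of 5 there. From hESC to HPC the count was 8 as deposited and between 6 and 8 elsewhere; a minimum of 20 took out CLDN5 and MMRN1 and a pseudocount of 5 took out CLDN5. Of 360 single values, which include differences that were not called at the outset, 349 stayed as they were, called or not. A call was lost in 10 and gained in 1. None called changed sign, but a change of pseudocount, minimum or fold cannot turn a sign. No paired analysis was possible because each population has 1 library; for the same reason none could be left out, and these alternatives do not stand in for replicates.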

Other observations

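Genes beside the members on the chromosome, in RefSeq order of protein-coding genes, were looked at after the values were seen. SNCG, a synuclein and the next gene to MMRN2, stood at 6.30, 2.00, 20.2 and 9.36 in hESC, MES, HEP and HPC, with its highest value in HEP as for MMRN2, while BMPR1A on the other side stood at 30.2, 31.1, 5.12 and 4.23. GP1BB, which lies 2 genes from CLDN5, stood at 0.53 in HEP and 9.33 in HPC and was listed at 0 before, and CLDN5 was also highest in HPC. NOTCH1, next to EGFL7, stood at 6.45, 8.32, 28.0 and 16.9, with its highest value in HEP as for EGFL7. ESAM and ROBO4 lie on the same chromosome with 2 protein-coding genes between them, MSANTD2 (8.97, 4.21, 2.67 and 1.40) and ROBO3, which was at 0.05 or below in each library. The share of reads common to neighbours was not tested; strand is not stated in the sources used here.

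Smooth muscle and mesenchyme markers parted after day 4. Of the 8 detected, 4 had a higher value in HPC than in HEP: ACTA2 (6.81 to 19.2, called higher), COL3A1 (23.1 to 41.7), PDGFRB (6.30 to 7.66) and LUM (0.32 to 0.74), the last 3 not called. The 4 others were called lower: TAGLN, COL1A2, COL1A1 (51.3 to 12.8) and CNN1 (12.0 to 1.83).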
